A study of Homo sapiens with 30 samples.

Results

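The early response of HCT116 cells to ML-792 was measured in 6 of the 30 RNA-seq libraries of the study, 3 from cells given 500 nM ML-792 and 3 from cells given vehicle (0.01% DMSO), each for 3.5 h and without heat shock. HCT116 is an epithelial cell line from a human colorectal carcinoma, and ML-792 (named ML00754792 in the labels) is a small molecule inhibitor of the SUMO-activating enzyme. The labels describe each group as biological triplicates. The comparison was fitted on these 6 libraries alone and covered the 11611 of 30373 listed genes that reached 1 FPKM (fragments per kilobase of transcript, scaled to the mapped total) in at least 3 of them. The other libraries of the study were HCT116 cells under the same drug or vehicle for 3.5 h with a heat shock (drug for 2 h, then 43 °C for 0.5 h and recovery at 37 °C for 1 h), and 3 cancer lines, HCT116 among them, under drug or vehicle for 16 h.

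SUMO proteins are small modifiers that become attached to lysines of other proteins. A heterodimer of SAE1 and UBA2 activates them, ligases such as the PIAS proteins help to transfer them, and SENP proteases remove them. Many of the modified proteins are nuclear: transcription factors, corepressors, PML bodies and the machinery that places and reads methylation of histone H3 at lysine K9. An inhibitor of the activating enzyme acts on protein modification, and the libraries described here measured messenger RNA only.

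Depth estimated from the smallest values of each library was 50.9 to 73.1 M (mega) fragments in DMSO and 47.7 to 62.8 M in ML-792, and 11535 to 11612 genes reached 1 FPKM in a library. In DMSO library 3 the step between small values alone gave 25.2 M, against 50.9 M from ratios to the other libraries. The ratio used was the most frequent one against DMSO library 1, and 7.93% to 9.39% of the compared low-value genes lay near it. The depths are therefore approximate, and the recorded plan was 30 M reads, below all of them. Across genes, libraries of the same group correlated at a Pearson r of 0.9979 to 0.9983 and libraries of different groups at 0.9967 to 0.9974, and no pair held identical values. Of 10 epithelial markers 8 were at 1 FPKM or more in every library, with a summed level of 2758 to 2894 FPKM in DMSO and 2838 to 2978 FPKM in ML-792, while VIL1 and CEACAM5 were under 1 FPKM throughout. The summed levels of 11 mesenchymal markers (242 to 262 and 234.3 to 249.3 FPKM, nearly all of it CAV1 and AXL), 6 leukocyte markers (2.99 to 3.71 and 2.95 to 3.51 FPKM) and 4 endothelial markers (at most 0.097 FPKM) overlapped between the groups. In these bulk libraries, fewer cells with a transcript and less of it in each cell cannot be told apart.

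At 3.5 h limma called 728 of 11611 genes (6.27%) at a Benjamini-Hochberg adjusted p under 0.05, 464 of them higher with ML-792 (4%) and 264 lower (2.27%). Most changes were small. On the log2(FPKM + 1) scale, which is used for every change below and understates the change of genes with low values, 452 of the 728 were under 0.25, 222 lay between 0.25 and 0.5, and 54 were at 0.5 or more. Rises made up 49 of those 54, and all 4 genes with a change of 1 or more were rises: DHRS2, H19, GDF15 and FGF19. With a pseudocount of 0.1 the count at 1 or more was 7. In FPKM itself some called genes of lower level also more than doubled, such as OSGIN1 (ratio of means of 2.07) and CYP1A1 (2.11). The 2 groups of 3 libraries did not overlap in 3271 genes (28.2% of those tested), and the 728 called genes were all among them. The median change over all genes tested was -0.0016. With libraries rescaled to equal totals the balance of the calls moved from 464 higher and 264 lower to 377 higher and 326 lower, with a median change of -0.015. The count of calls was 408 to 543 when any 1 of the 6 libraries was left out and 147 (124 higher and 23 lower) in a fit over all 12 libraries of 3.5 h, which share 1 estimate of the spread. Of the called genes 21 had a library under 1 FPKM in 1 group and none in the other, so the filter on low values kept them through 1 group.

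**Figure D1:**
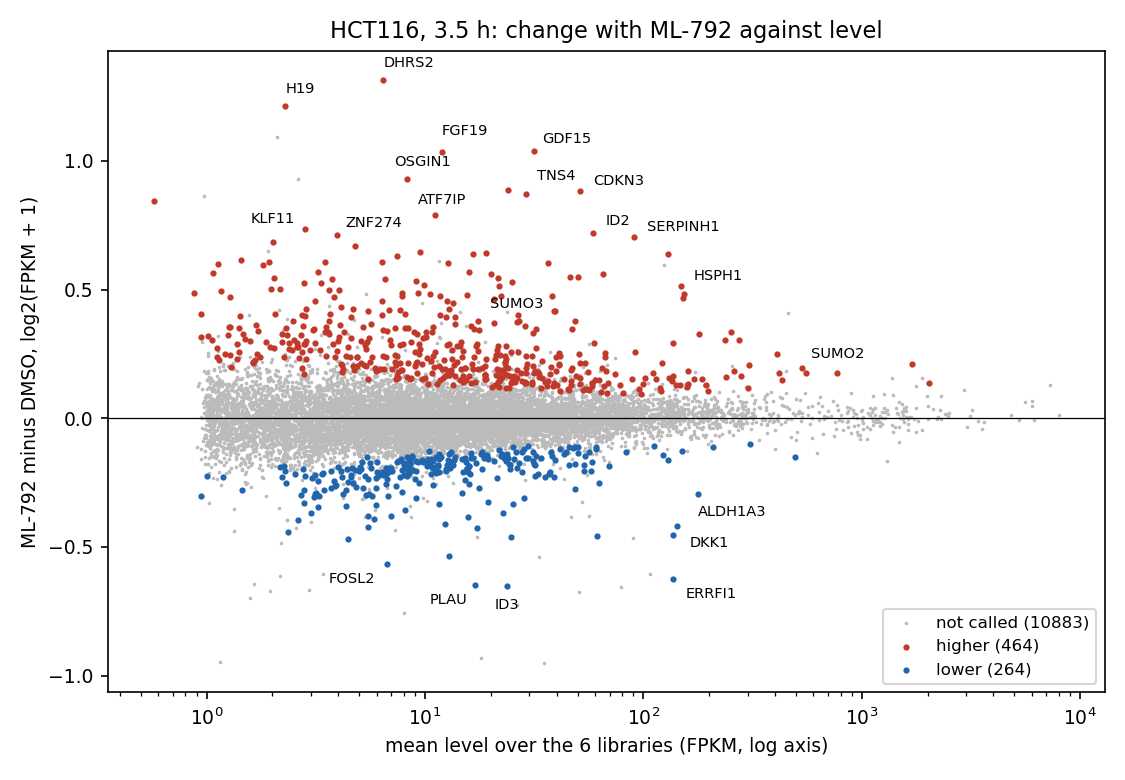
Change with ML-792 at 3.5 h (vertical axis, difference of mean log2(FPKM + 1)) against the mean level over the 6 libraries (horizontal axis, FPKM on a log scale), with 1 point per gene. Red points are the 464 genes called higher, blue points the 264 called lower, and grey points the 10883 not called. The 4 called changes of 1 or more lie on the upper side.

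Transcripts of SUMO2 and SUMO3 were higher after 3.5 h of ML-792, and those of the activating enzyme itself showed no detectable difference. SUMO3, which becomes attached to substrates singly or in chains, had 22.03, 23.1 and 24.7 FPKM in the 3 DMSO libraries and 30.7, 32.5 and 28.6 FPKM in the 3 ML-792 libraries. Every ML-792 library was above every DMSO library, and the rise was 0.38 ± 0.052 (± SE from limma, n = 3 against 3, adjusted p = 0.00317). SUMO2, a near-identical relative with a far higher level in FPKM, had 489, 504 and 501 FPKM in DMSO and 577, 580.2 and 552 FPKM in ML-792, without overlap (rise of 0.19 ± 0.030, adjusted p = 0.00492). The subunits of the drug's target were close to level, SAE1 with a difference of 0.024 ± 0.024 and UBA2 with 0.022 ± 0.031 (adjusted p = 0.628 and 0.741). Among 27 tested pathway genes 3 rose, SUMO2 and SUMO3 among them, and 1 fell, the fall being the SUMO ligase ZNF451 (fell by 0.13 ± 0.032, adjusted p = 0.04997), and none of the SENP proteases passed the test. The median change of the pathway list was 0.024. The fall of ZNF451 was lost without any 1 of the libraries (adjusted p of 0.0916 to 0.143), and in a fit over the 12 libraries of 3.5 h, heat shocked ones included, the rise of SUMO2 was lost too.

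Chaperone genes rose in a larger share than any other list described here. Of 23 tested members of a list of heat shock chaperones and their partners 14 rose and 0 fell (60.9%, against 4% of all genes), all 23 had a change above 0, and the median change was 0.14. SERPINH1 (HSP47), the collagen chaperone of the endoplasmic reticulum, shared the smallest adjusted p of all genes tested with 1 other transcript. It stood at 68.8, 67.9 and 69.3 FPKM in DMSO and at 113, 113 and 111 FPKM in ML-792, a rise of 0.70 ± 0.024 (adjusted p = 8.35e-07). The spread within each group was small next to the gap between them. HSPH1 (HSP110), a nucleotide exchange factor for HSP70, rose from 119, 126 and 123 FPKM to 177, 174 and 176 FPKM (by 0.51 ± 0.028, adjusted p = 8.24e-06). DNAJB1 (HSP40), a cochaperone of HSP70, rose from 122, 133 and 130.2 FPKM to 175, 177 and 187 FPKM (by 0.48 ± 0.037, adjusted p = 8.08e-05). The small heat shock protein HSPB1 (HSP27) rose from 233, 218 and 216 FPKM to 281, 280.5 and 279.5 FPKM (by 0.33 ± 0.032, adjusted p = 0.000309). In all 4 genes each ML-792 library exceeded each DMSO library. The other 10 that rose had changes of 0.11 to 0.29: HSPA4L, DNAJB4, HSPA8, BAG3, DNAJA1, FKBP4, HSPA1B, HSP90AA1, STIP1 and AHSA1. HSPA1B was just inside the threshold (adjusted p = 0.0497) and shares nearly all of its sequence with HSPA1A, so its reads may be divided between both genes. HSP90AB1, HSPD1, HSPE1 and 6 further members had changes of 0.022 to 0.11 and did not pass. The count of rises was 9 to 11 when any 1 library was left out, 9 with no filter on low values, and 3 in the fit over the 12 libraries of 3.5 h.

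The promoter windows of these genes were searched for the heat shock element, the site bound by HSF1, the main activator of chaperone genes. The search took 3 units in alternating orientation (GAA, TTC, GAA) with 2 free bases between neighbours, on both strands, in windows of 300 bases around RefSeq gene starts (build GRCh38.p14, 250 bases before the start and 50 after). The element was in 0.49% of all 35116 windows. It was in 4 of the 13 chaperone genes that rose and have a window (DNAJA1, HSP90AA1, HSPA8 and SERPINH1) and in 4 of the 9 tested chaperone genes that did not pass the test (CHORDC1, DNAJB6, HSP90AB1 and HSPD1). The list was drawn up as targets of HSF1, so the share over all windows is no background for its members. That share is per window, while a gene counts if any of its windows matches. A match is a description of the letters and no evidence of binding. The 250 bases before the start of SERPINH1 (chr11:75562003-75562252, plus strand) and HSPA8 (chr11:123062137-123062386, minus strand) are shown 5′ to 3′ because these are the largest and one of the most abundant of the risen genes with a match; the matches are in capitals, 76 bases before the start in SERPINH1 and 230 and 55 bases before it in HSPA8.
SERPINH1: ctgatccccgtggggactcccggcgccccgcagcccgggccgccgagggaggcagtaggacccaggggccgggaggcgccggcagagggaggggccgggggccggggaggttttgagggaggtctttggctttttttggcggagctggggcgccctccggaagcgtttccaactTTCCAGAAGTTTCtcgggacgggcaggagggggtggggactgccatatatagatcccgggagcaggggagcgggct
HSPA8: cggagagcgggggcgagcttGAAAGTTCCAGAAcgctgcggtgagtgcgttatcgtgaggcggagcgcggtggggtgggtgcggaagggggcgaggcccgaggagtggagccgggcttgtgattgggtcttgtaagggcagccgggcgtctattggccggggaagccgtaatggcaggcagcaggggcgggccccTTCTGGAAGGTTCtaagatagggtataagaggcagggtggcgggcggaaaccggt

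Genes of the endoplasmic reticulum unfolded protein response rose in 6 of 18 tested (4% of all genes rose) and fell in 0 (2.27% of all genes fell), with a median change of 0.084. XBP1, a transcription factor of this response, had 27.3, 28.1 and 27.5 FPKM in DMSO and 34.5, 34.1 and 36.6 FPKM in ML-792 (rise of 0.33 ± 0.033, adjusted p = 0.000389). HSPA5 (BiP), the HSP70 of the endoplasmic reticulum, had 365, 382 and 373 FPKM and 428, 449 and 454 FPKM (rise of 0.25 ± 0.032, adjusted p = 0.00165). Neither gene's groups overlapped. The other 4 were the cochaperone DNAJB9 (rise of 0.36 ± 0.043), the degradation factor HERPUD1 (0.28 ± 0.057), the secreted protein MANF (0.26 ± 0.032) and the chaperone HSP90B1 (0.18 ± 0.026), with adjusted p-values of 0.00123, 0.0233, 0.00138 and 0.00393. PDIA3, PDIA4, PDIA6, CALR, CANX and HYOU1, further folding factors, had changes of at most 0.099 and did not pass the test. The ER stress element, the site of ATF6 and XBP1 protein, was searched on both strands as CCAAT and CCACG with 9 free bases between them, and was in 0.077% of all windows. It was in 3 of the 6 genes that rose (HSP90B1, HSPA5 and XBP1) and in 4 of the 11 others with a window (CALR, CANX, CRELD2 and PDIA6). This list was drawn up as targets of the response, so the share over all windows is again no background for its members. The 250 bases before the start of HSPA5 (chr9:125241344-125241593, minus strand) and XBP1 (chr22:28800570-28800819, minus strand) are shown because the most abundant chaperone and the transcription factor of the response both hold it, in capitals, 66 and 52 bases before the start.
HSPA5: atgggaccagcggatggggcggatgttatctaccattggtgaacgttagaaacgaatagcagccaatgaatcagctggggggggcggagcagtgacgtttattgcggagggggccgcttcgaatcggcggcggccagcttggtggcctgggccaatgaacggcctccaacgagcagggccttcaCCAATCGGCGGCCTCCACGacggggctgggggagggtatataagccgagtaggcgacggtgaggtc
XBP1: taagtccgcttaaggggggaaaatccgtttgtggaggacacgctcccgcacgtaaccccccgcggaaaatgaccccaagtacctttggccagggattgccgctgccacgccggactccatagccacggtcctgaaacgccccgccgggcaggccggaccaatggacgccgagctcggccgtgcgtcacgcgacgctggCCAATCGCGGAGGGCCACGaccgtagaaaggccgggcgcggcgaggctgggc
In the fit over the 12 libraries of 3.5 h only 1 of the 18 genes was called.

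Among genes above the median level (11.1 FPKM), the largest rises were those of GDF15, FGF19, TNS4 and CDKN3. GDF15, a stress-induced secreted factor of the TGF-beta family, had 22.4, 19.2 and 19.5 FPKM in DMSO and 42.2, 43.01 and 43.1 FPKM in ML-792, a rise of 1.04 ± 0.051 (adjusted p = 8.24e-06). FGF19, a secreted hormone of the intestine, had 7.98, 7.22 and 7.27 FPKM and 17.3, 15.5 and 16.4 FPKM (rise of 1.04 ± 0.050, adjusted p = 5.67e-06). Both approximately doubled, with no overlap between groups. TNS4 (tensin 4), a focal adhesion protein, rose by 0.89 ± 0.052 (adjusted p = 1.66e-05) from 18.1, 15.8 and 15.7 FPKM to 32.2, 30.4 and 31.3 FPKM. CDKN3, a phosphatase of cyclin-dependent kinases, rose by 0.88 ± 0.046 (adjusted p = 8.24e-06) from 33.2, 37.7 and 36.6 FPKM to 65.1, 69.02 and 66.4 FPKM. The other 8 of the 12 largest rises were 0.57 to 0.72 and included 2 epithelial ETS factors, EHF and ELF3. GPRC5A, a retinoic acid-induced receptor, rose by 0.64 ± 0.030 and RGS2, which shortens the signal of heterotrimeric G proteins, by 0.64 ± 0.059. LRIF1, a nuclear protein that binds HP1, rose by 0.60 ± 0.035, and TAF7, a subunit of TFIID, by 0.60 ± 0.030 (adjusted p-values of 5.67e-06, 0.000341, 1.06e-05 and 6.58e-06).

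The largest falls were smaller than the largest rises. ID3, a small inhibitor of helix-loop-helix transcription factors, had 28.9, 31.3 and 27.7 FPKM in DMSO and 16.4, 19.3 and 19.2 FPKM in ML-792 (fell by 0.65 ± 0.068, adjusted p = 0.00122). PLAU (urokinase), a secreted protease, had 20.9, 21.2 and 20.6 FPKM and 12.4, 13.3 and 13.2 FPKM (fell by 0.65 ± 0.034, adjusted p = 8.24e-06). ERRFI1 (MIG6), an inhibitor of the EGF receptor, was the most abundant of the 3 and had 165, 165 and 169.9 FPKM and 107, 106 and 110.4 FPKM (fell by 0.63 ± 0.027, adjusted p = 5.12e-06). In each of the 3 genes all ML-792 libraries were below all DMSO libraries. HMOX1 (heme oxygenase) fell by 0.53 ± 0.039, DKK1, a secreted WNT antagonist, by 0.45 ± 0.025, and ALDH1A3, which makes retinoic acid, by 0.42 ± 0.024 (adjusted p-values of 6.20e-05, 8.24e-06 and 1.06e-05). DKK1 had 156, 161 and 156 FPKM in DMSO and 115, 114 and 115 FPKM in ML-792, and ALDH1A3 had 163, 162 and 163 FPKM and 121, 123 and 120.05 FPKM. The remaining 6 were HYAL2, ID1, ZBTB2, ADM, DNMBP and ADAM19, with falls of 0.33 to 0.46. The fall of ADAM19 was the one of these 12 lost in the fit over the 12 libraries of 3.5 h (adjusted p = 0.0796).

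**Figure D2:**
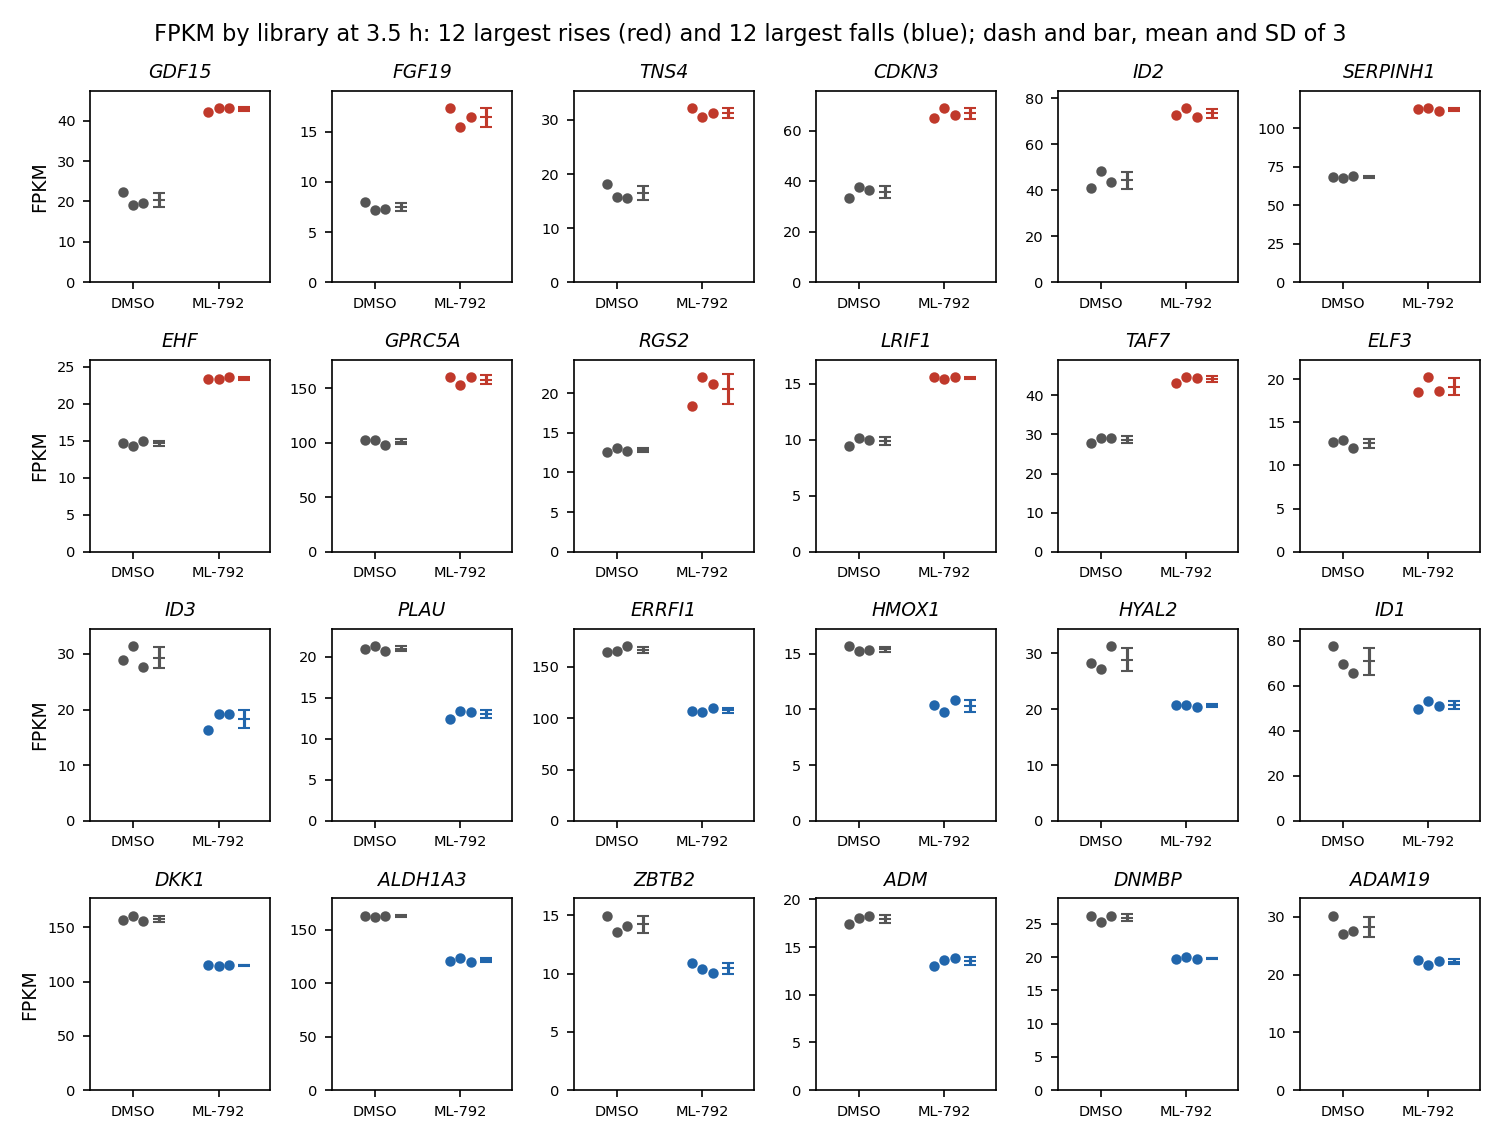
FPKM in each library of the 12 genes above the median level with the largest rises (red) and the 12 with the largest falls (blue), DMSO points in grey, on vertical axes that start at 0. Points are single libraries and the dash with its bar is the mean and SD of 3; in none of the 24 genes did the groups overlap.

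Several of the largest rises were in genes with low levels, where the scale understates the fold. H19, KLF11 and CYP1A1 are named for that size, after their values were seen. DHRS2, a short-chain dehydrogenase/reductase, had 2.91, 3.74 and 3.17 FPKM in DMSO and 9.36, 9.64 and 9.77 FPKM in ML-792, the largest rise of all called genes (1.31 ± 0.065, adjusted p = 6.58e-06). The imprinted noncoding RNA H19 had 1.05, 1.07 and 0.824 FPKM and 3.83, 3.33 and 3.62 FPKM (rise of 1.22 ± 0.066, adjusted p = 8.24e-06). OSGIN1, an oxidative stress-induced growth inhibitor, went from 5.53, 5.69 and 4.89 FPKM to 11.5, 10.8 and 11.04 FPKM (rise of 0.93 ± 0.051, adjusted p = 8.78e-06). All 3 had a clear gap between the groups. The transcription factor KLF11 rose by 0.73 ± 0.053 and CYP1A1, a target of the aryl hydrocarbon receptor, by 0.62 ± 0.051 from 0.859, 0.983 and 0.928 FPKM to 1.90, 1.99 and 1.96 FPKM. CYP1A1 was under 1 FPKM in every DMSO library and above it in every ML-792 library, so it entered the test through its high group.

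Genes of histone H3K9 silencing rose in 6 of 19 tested and fell in 0, against 4% and 2.27% of all genes. ATF7IP, the partner that stabilises the methyltransferase SETDB1, had 7.94, 7.54 and 8.05 FPKM in DMSO and 14.3, 13.9 and 14.7 FPKM in ML-792 (rise of 0.79 ± 0.038, adjusted p = 5.67e-06). ZNF274, a zinc finger protein that recruits SETDB1 to zinc finger gene clusters, had 2.43, 2.76 and 3.07 FPKM and 4.9996, 5.15 and 5.25 FPKM (rise of 0.71 ± 0.062, adjusted p = 0.000159). MORC2, an ATPase that works with the HUSH silencing complex, had 8.45, 8.89 and 8.67 FPKM and 12.7, 12.5 and 12.3 FPKM (rise of 0.48 ± 0.035, adjusted p = 5.35e-05). In these 3 genes the libraries of the groups did not overlap. FAM208A (TASOR), a HUSH subunit, rose by 0.29 ± 0.038, ATF7IP2 by 0.36 ± 0.060 and the remodeller CHD3 by 0.20 ± 0.040 (adjusted p-values of 0.00177, 0.00801 and 0.0165). The 10 readers and HUSH members gave 4 of the rises and the 9 members of the SETDB1 complex and methyltransferases gave 2. SETDB1 itself, TRIM28, SUV39H1 and EHMT2 had changes of -0.043 to 0.039 and did not pass the test. The median change of the list was 0.039, and 3 of the 6 rises stayed called in the fit over the 12 libraries of 3.5 h.

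Genes with a ZNF name, most of which encode zinc finger proteins and many of which lie in clusters marked by H3K9 methylation, rose in 51 of 300 tested (17%, against 4% of all genes) and fell in 2. The rises were broad and shallow: the median change of the 300 was 0.040, that of the 51 was 0.31, and 196 of the 300 were above 0. After ZNF274 the next were ZNF134, with 2.57, 2.73 and 2.33 FPKM in DMSO and 4.27, 4.61 and 4.29 FPKM in ML-792 (rise of 0.61 ± 0.055, adjusted p = 0.000195), and ZNF84, with 1.35, 1.56 and 1.48 FPKM and 2.37, 2.58 and 2.52 FPKM (rise of 0.50 ± 0.053, adjusted p = 0.000573). Neither gene's groups overlapped. ZNF616, ZNF613, ZNF165, ZNF45 and ZNF180 followed. ZSCAN31, a zinc finger gene with another name, rose by 0.68 ± 0.049 (adjusted p = 5.35e-05). Levels were low, with a median of 3.97 FPKM over the 300 and 3.48 FPKM over the 51, and 6 of the 51 had a DMSO library under 1 FPKM and no ML-792 library under it. Relatives in this family share sequence, and how reads that match several of them were divided is not given in the sources used here. The count of rises was 36 to 43 without any 1 library, 15 of 120 (with 3 falls) where genes had to reach 5 FPKM, and 22 in the fit over the 12 libraries of 3.5 h. The median GC content of their transcripts was 44.5%, against 48.3% over genes not called, and once GC content and length were regressed out 51 of 297 rose and 4 fell.

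Outputs of the ERK pathway moved in both directions. Of 17 tested genes, phosphatases, Sproutys, ligands and ETS factors that are induced by ERK and in part restrain it, 5 rose and 2 fell (4% and 2.27% over all genes), with a median change of -0.090. Higher were SPRY4 (Sprouty 4, rise of 0.40 ± 0.034), the ERK phosphatase DUSP6 (0.35 ± 0.030), the ligand EREG (0.33 ± 0.024), DUSP5 (0.29 ± 0.028) and ETV4 (0.12 ± 0.026), with adjusted p-values of 0.000124, 0.000152, 5.42e-05, 0.000304 and 0.0304. DUSP6 had 41.7, 41.7 and 40.4 FPKM in DMSO and 54.6, 51.8 and 51.9 FPKM in ML-792, with no overlap. EREG had 158, 159.99 and 159.7 FPKM and 202, 199.6 and 198 FPKM, also apart. ERRFI1, described above, fell, as did the ligand AREG (by 0.17 ± 0.026, adjusted p = 0.00459), so EREG and AREG, both ligands of the EGF receptor, went opposite ways. ETV5, DUSP4, SPRY2 and SPRED1 did not pass the test. The count of rises was 4 without any 1 library, with the call of ETV4 lost each time. In the fit over the 12 libraries of 3.5 h 3 rises and 1 fall were called, and the fall of AREG was lost.

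Among 27 tested immediate early genes 4 rose and 5 fell, where 4% and 2.27% of all genes did, with a median change of -0.068. With 1 library left out, either library 1 or 3 of ML-792 or library 3 of DMSO, only 2 rises were called, and the count was 1 of 31 in the fit over the 12 libraries of 3.5 h, with 3 falls. The ID genes split: ID2 rose from 40.9, 48.4 and 43.6 FPKM to 72.7, 75.8 and 71.7 FPKM (by 0.72 ± 0.056, adjusted p = 0.000188), while ID3 fell and ID1 fell from 77.5, 69.7 and 65.8 FPKM to 49.8, 53.2 and 51.2 FPKM (by 0.46 ± 0.056, adjusted p = 0.00225). The stress factor ATF3 and IER3, an early response gene, rose by 0.30 each. FOSL2, an AP-1 subunit, fell by 0.57 ± 0.044 and the nuclear receptor NR4A1 by 0.38 ± 0.043 (adjusted p = 7.90e-05 and 0.000791). FOS, JUN, JUNB, EGR1 and CYR61 had changes of -0.11 to 0.19, none of them called. MYC fell by 0.11 ± 0.026 (adjusted p = 0.0323), a call lost without any 1 of 5 of the 6 libraries (adjusted p of 0.0532 to 0.125). The ID genes are also targets of BMP signalling: of 10 tested TGF-beta and BMP targets 3 rose, ID2 and SMAD7 among them, and 3 fell (ID3, ID1 and TGIF1). TGIF1, a corepressor of SMAD proteins, fell by 0.25 ± 0.031 (adjusted p = 0.00141). SMAD7 was below 1 FPKM in some DMSO libraries.

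Factors that specify epithelium were higher in 4 of 14 tested (4% of all genes) and lower in 1 (2.27% of all genes), OVOL1 (-0.37). EHF had 14.7, 14.3 and 14.9 FPKM in DMSO and 23.4, 23.3 and 23.6 FPKM in ML-792 (rise of 0.64 ± 0.029, adjusted p = 5.67e-06), and ELF3 had 12.8, 12.999 and 11.99 FPKM and 18.5, 20.2 and 18.7 FPKM (rise of 0.57 ± 0.043, adjusted p = 7.39e-05). KLF5 rose by 0.53 ± 0.038 and SOX9, a factor of crypt cells, by 0.36 ± 0.034 (adjusted p = 5.35e-05 and 0.000304). All 4 had groups that did not overlap, and all 4 stayed called without any 1 library and in the fit over the 12 libraries of 3.5 h. CDX2 and HNF4A did not pass the test (changes of -0.15 and -0.10). Of 12 tested WNT targets, SOX9 and RNF43 rose, DKK1 and MYC fell, and AXIN2 had a change of 0.18 that did not pass the test. The call of RNF43 was kept under 7 of 16 alternative settings and was lost in the fit over the 12 libraries of 3.5 h.

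Cell cycle genes showed small rises with 1 large one. Of 30 genes of G2 and mitosis 8 rose and 0 fell, beside 4% and 2.27% of all genes, with a median change of 0.061. Apart from CDKN3 the rises were 0.12 to 0.23: CENPA, KIF20A, NUSAP1, MKI67, CCNB1, AURKA and HMMR. CENPA, the centromeric histone, had 18.003, 17.4 and 16.96 FPKM in DMSO and 20.8, 21.04 and 20.1 FPKM in ML-792 (rise of 0.23 ± 0.033, adjusted p = 0.00335). PLK1, CDC20, BUB1 and BIRC5 did not pass the test (-0.041 to 0.025). The count of rises in this list was 3 to 5 without any 1 library and 1 in the fit over the 12 libraries of 3.5 h. Of 30 genes of DNA replication and S phase 3 rose and 0 fell, all of them linked to entry into S phase: the cyclins CCNE2 and CCNE1 and the licensing factor CDC6. CCNE2 had 16.1, 19.5 and 18.05 FPKM and 25.4, 26.03 and 26.2 FPKM (rise of 0.51 ± 0.058, adjusted p = 0.00122), and CCNE1 had 28.9, 28.997 and 29.4 FPKM and 35.4, 35.7 and 35.02 FPKM (rise of 0.27 ± 0.026, adjusted p = 0.000279). The groups were apart in both. All 3 calls were lost in the fit over the 12 libraries of 3.5 h (adjusted p = 0.0508, 0.0527 and 0.154). No MCM gene passed the test.

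Among 28 tested members of a list of p53 targets 4 rose and 1 fell, next to 4% and 2.27% of all genes. Their median change was -0.041. The members that rose were GDF15, the BCL2-family death inducer PMAIP1 (NOXA), the kinase PLK2 and CDKN1B (p27). CDKN1B is counted because the list of cell cycle, death and repair genes holds it, and its control by p53 was not tested. PMAIP1 had 36.995, 38.1 and 37.1 FPKM in DMSO and 55.9, 56.7 and 53.1 FPKM in ML-792 (rise of 0.55 ± 0.031, adjusted p = 1.06e-05), and PLK2 had 39.9, 43.2 and 39.2 FPKM and 61.3, 60.2 and 58.7 FPKM (rise of 0.55 ± 0.038, adjusted p = 4.92e-05). Both were clear of overlap. CDKN1A (p21), the best-known target, fell by 0.13 ± 0.026 (adjusted p = 0.0172), from 53.4, 52.1 and 52.1 FPKM to 47.1, 47.6 and 48.7 FPKM, and MDM2, BAX and BBC3 had changes of -0.051 to -0.044 that did not pass the test. This list had 0 falls without DMSO library 1, DMSO library 2 or ML-792 library 1 and in the fit over the 12 libraries of 3.5 h, so the call of CDKN1A was lost there. Of 24 targets of ATF4 and the amino acid response, DDIT3 (CHOP) rose by 0.46 ± 0.047, CHAC1 by 0.29 ± 0.051 and DDIT4 by 0.20 ± 0.042, and ATF5 fell by 0.20 ± 0.041, while ASNS, TRIB3 and PSAT1 did not pass the test. The calls of DDIT4 and ATF5 were lost without 4 and 3 of the libraries left out in turn, respectively. Of 15 NRF2 targets OSGIN1 rose, HMOX1 and SRXN1 fell (SRXN1 by 0.21 ± 0.033), and NQO1, GCLM and TXNRD1 did not pass the test.

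Further lists had few calls, to be read against 4% of all genes called higher and 2.27% lower. Of 18 hypoxia targets 4 rose, ANGPTL4 (by 0.60 ± 0.057, with all libraries under 3 FPKM), SLC2A3, SLC2A1 and KDM3A, and 2 fell, ADM and EGLN1, with a median change of -0.0053. Of 13 clock factors NR1D1 (REV-ERB alpha) rose by 0.39 ± 0.055, and TEF, NFIL3 and ARNTL rose by 0.21 to 0.24. Of 9 NF-kB and cytokine genes TNFAIP2, NFKBIA and NFKB2 rose by 0.17 to 0.39 and LIF fell by 0.17 ± 0.040. Among 23 genes of cholesterol synthesis HMGCS1 rose by 0.25 ± 0.033 and 3 fell, STARD4 (-0.20) and DHCR7 (-0.16) among them. Of 20 repressor complex members MGA and HDAC4 rose and ZNF217 and RCOR1 fell. Several of these small changes were lost when libraries were left out in turn: ARNTL, NFKBIA, LIF, DHCR7, MGA, HDAC4, ZNF217 and RCOR1 each lost the call without at least 3 of the 6 libraries.

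Interferon-response genes (20 tested), PML body components (10) and mitochondrially encoded genes (13) gave 0 calls with limma, against 6.27% of all genes. Ribosome biogenesis (24) gave 1, PPAN (fell by 0.21 ± 0.034). Median changes of these lists, in that order, were -0.0058, -0.027, 0.049 and -0.033. PML, SP100 and DAXX, the core of PML bodies, had changes of -0.033 to -0.025, and IFIH1 of the interferon list had 0.0056. At an unadjusted p under 0.05 by limma the counts were 3, 2, 3 and 6, and 2487 of all 11611 genes reached it. In lists this short, these counts do not set the lists apart from all genes. Without ML-792 library 1 or 2, 1 mitochondrially encoded gene or 1 interferon-response gene was called, and once GC content and length were regressed out 1 interferon-response gene was called higher and 3 ribosome biogenesis genes lower.

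**Figure D3:**
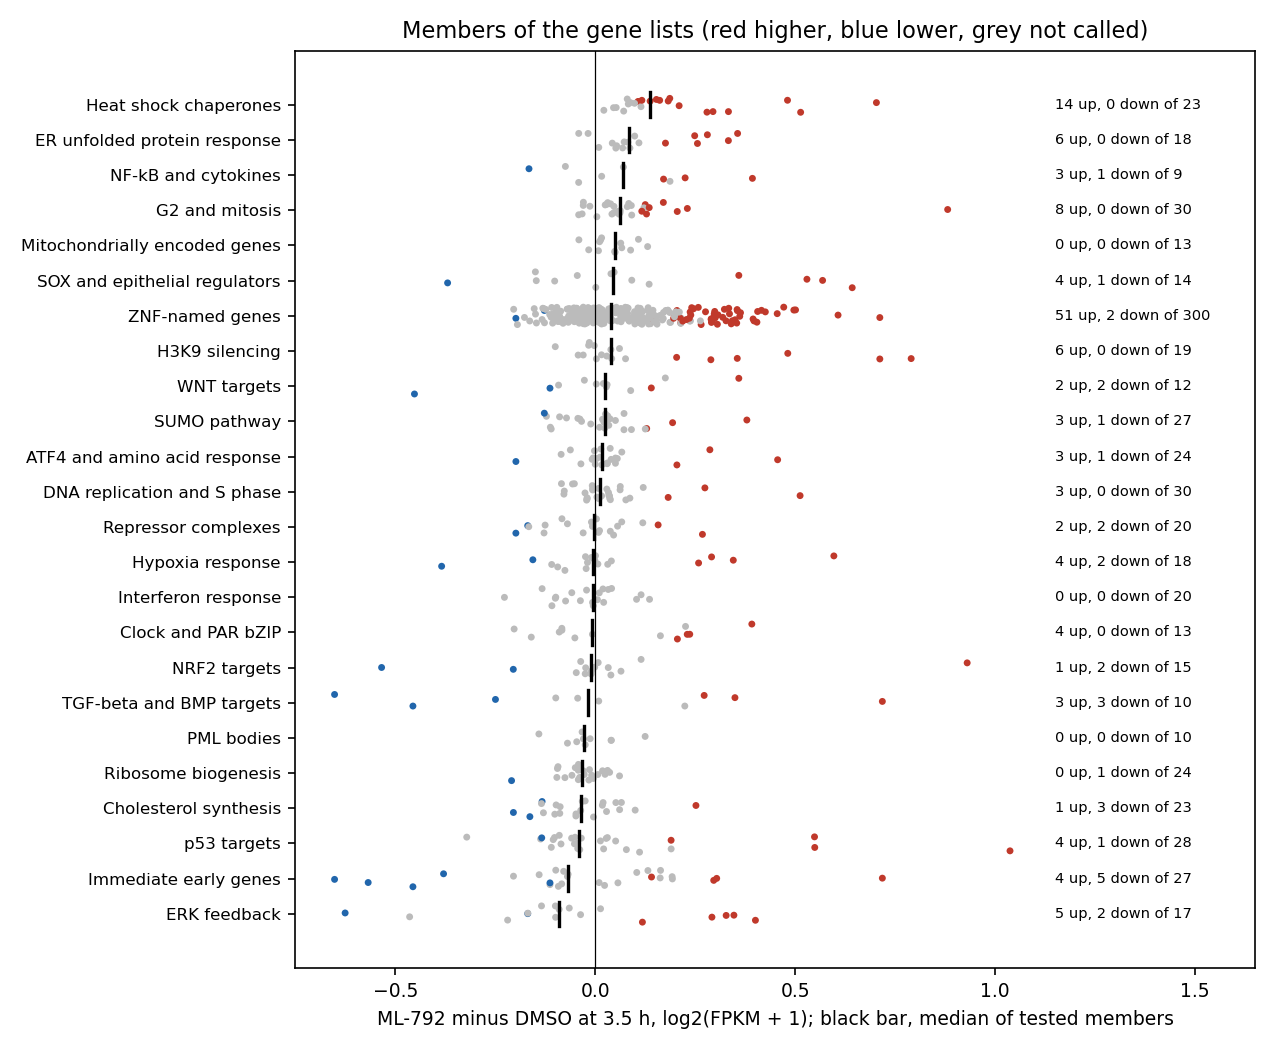
Change with ML-792 at 3.5 h of each tested member of the 24 gene lists (horizontal axis, log2(FPKM + 1)), with lists ordered by the median of their members (black bar). Red points are members called higher, blue points lower and grey points not called, with the counts at the right; the chaperone list lies highest, with 14 of 23 members called higher.

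The 16 h libraries of HCT116, a separate set of 3 ML-792 and 3 DMSO libraries, give the same genes after a longer exposure. There limma called 1316 of 12355 genes (10.7%), 727 higher (5.88%) and 589 lower (4.77%). With equal totals the split was 552 and 882, and without any 1 library the count was 489 (without ML-792 library 2) to 2062 (without ML-792 library 1). Of the 458 genes that rose at 3.5 h and were tested at 16 h, 409 were above 0 at 16 h (89.3%, against 51.4% of all genes). Called higher again were 237 (51.7% of the 458 and 32.6% of the 727), while 7 were called lower. Of the 263 that fell at 3.5 h, 228 were below 0 (86.7%, against 48.6% of all genes). Called lower again were 87 (33.1% of the 263 and 14.8% of the 589), and 0 were called higher. Across genes the changes at both times correlated at a Pearson r of 0.52 over 11526 genes and 0.78 over the 721 called at 3.5 h; these points share the libraries of each time and are not independent. Of the 50 ZNF-named genes that rose and were tested at 16 h, 44 were called higher there, and all 6 of the H3K9 silencing genes were. Of the 14 chaperone genes 4 were called higher (SERPINH1, HSPH1, HSPA4L and DNAJB1) and HSPA1B was called lower, by 0.34 ± 0.071 (adjusted p = 0.0139).

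Whether the effect itself differed between times was tested as an interaction over the 12 libraries, in which 2.4% of all genes were called. Of the 728 genes called at 3.5 h 89 differed (12.2%). At 16 h 31 rises were larger and 30 smaller or turned, and 20 falls were deeper and 8 shallower or turned. In 26 of the 89 the change at 16 h had the opposite sign. Over all genes 140 differences were higher (1.12%) and 159 lower (1.28%), 107 and 195 with equal totals, and the count was 156 to 808 without any 1 library. This test uses the 3.5 h libraries by which the genes were chosen and is not independent of that choice. DHRS2 went furthest, with 5.50, 5.47 and 5.98 FPKM in DMSO and 69.8, 72.4 and 68.9 FPKM in ML-792 at 16 h, a change of 3.42 ± 0.053 against 1.31 ± 0.065 at 3.5 h. ASMTL, a gene of the pseudoautosomal region, changed by 1.97 ± 0.072 against 0.46 ± 0.039, and ODC1, the first enzyme of polyamine synthesis, by 1.08 ± 0.051 against 0.18 ± 0.031. ALDH1A3 fell by 1.05 ± 0.045 against 0.42 ± 0.024, and ATF7IP rose by 1.5005 ± 0.058 against 0.79 ± 0.038 (adjusted p of the difference of 8.39e-09, 6.07e-07, 1.00e-06, 1.00e-06 and 4.36e-05). Other early rises had smaller changes at 16 h, or changes below 0: ELF3 had a change of 0.076 ± 0.075, KLF5 of 0.13 ± 0.058, CCNE1 of -0.12 ± 0.053 and CCNE2 of 0.025 ± 0.066, and in all 4 the difference between times passed the test (adjusted p of 0.0137, 0.00708, 0.00126 and 0.0126). These 4 genes and ATF7IP were chosen for this comparison after their values were seen. SUMO3 was higher again at 16 h, by 1.30 ± 0.050 (difference between times of 0.92 ± 0.073, adjusted p = 6.34e-06). Changes at 16 h correlated with transcript GC content across genes (Spearman rho of -0.49, against -0.14 at 3.5 h), and with GC content and length regressed out the called differences among 669 early genes were 165, of which 82 were shared, in direction, with the 83 called otherwise.

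In the heat shocked libraries ML-792 had another profile for many of the early genes. limma called 255 of 11978 genes there (2.13%), 88 higher (0.735%) and 167 lower (1.39%). Median-of-ratios scaling split the calls 89 to 325, rescaling to equal totals 18 to 67, and without any 1 library the count was 9 (without DMSO library 2) to 1167 (without ML-792 library 3). Of 454 early rises 299 were above 0 (65.9%, against 59.7% of all genes), 25 were called higher and 11 lower, and of 263 early falls 141 were below 0 (53.6%, against 40.3%), 13 were called lower and 0 higher. Changes in the heat shocked libraries correlated strongly with GC content (Spearman rho of 0.70), and with that trend removed 71.4% of the early rises and 85.4% of the early falls kept their sign. The median change over all genes tested was then 0.0097, against 0.057 before. Over the genes called at 3.5 h the Pearson r between both sets of changes was 0.30 (717 genes), and 0.52 with the trend removed (659 genes). TNS4, DHRS2, FGF19, CDKN3, OSGIN1 and ZNF274 were called higher with heat shock too (changes of 0.56 to 1.02), and MYC, DKK1, ERRFI1, AREG and FOSL2 lower (-0.42 to -1.12).

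The interaction of ML-792 with heat shock was called for 152 of the 728 early genes (20.9%, against 6.41% of all genes). This test uses the 3.5 h libraries by which the genes were chosen. Neither that share nor the directions below are independent of the choice. Of the rises 106 were smaller or turned with heat shock and 1 was larger, and of the falls 38 were shallower or turned and 7 deeper. RGS2 had 59.6, 67.5 and 69.9 FPKM in DMSO with heat shock and 36.7, 35.1 and 36.9 FPKM in ML-792 with heat shock, a fall of 0.84 ± 0.086 where there had been a rise of 0.64 ± 0.059 (difference of -1.47 ± 0.10, adjusted p = 2.15e-05). DUSP5 went from 219, 256 and 265 FPKM to 125, 135 and 134 FPKM under heat shock (fell by 0.90 ± 0.099, difference of -1.19 ± 0.097, adjusted p = 5.30e-05). The means of RGS2 and DUSP5 in DMSO were 12.8 and 53.3 FPKM without heat shock and 65.6 and 246 FPKM with it, and in ML-792 20.5 and 65.5 FPKM without it and 36.3 and 131 FPKM with it. ARRDC3, DUSP6, PLK2, ID2 and SPRY4 likewise rose without heat shock and had changes of -0.30 to -0.64 with it. The change was lower with heat shock, by the interaction, for 4 of the 5 ERK pathway rises and for all 4 epithelial factors, of which EHF kept a change above 0 (0.079 ± 0.11) and ELF3, KLF5 and SOX9 had changes below 0. Over the 669 early genes with GC values 83 differences were called once GC content and length were regressed out, 69 of them among the 137 called otherwise and in the same direction, and RGS2, ARRDC3, DUSP6, DUSP5 and PLK2 were among those that did. Over all genes 781 differences were called, 302 higher (2.48%) and 479 lower (3.93%), which became 203 and 823 under median-of-ratios scaling; equal totals gave 37 and 210. That count was 77 to 107 when any 1 of the 6 libraries without heat shock or DMSO library 2 with it was left out, and 507, 1887 and 2520 without ML-792 library 2, DMSO library 3 or ML-792 library 3 with heat shock.

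**Figure D4:**
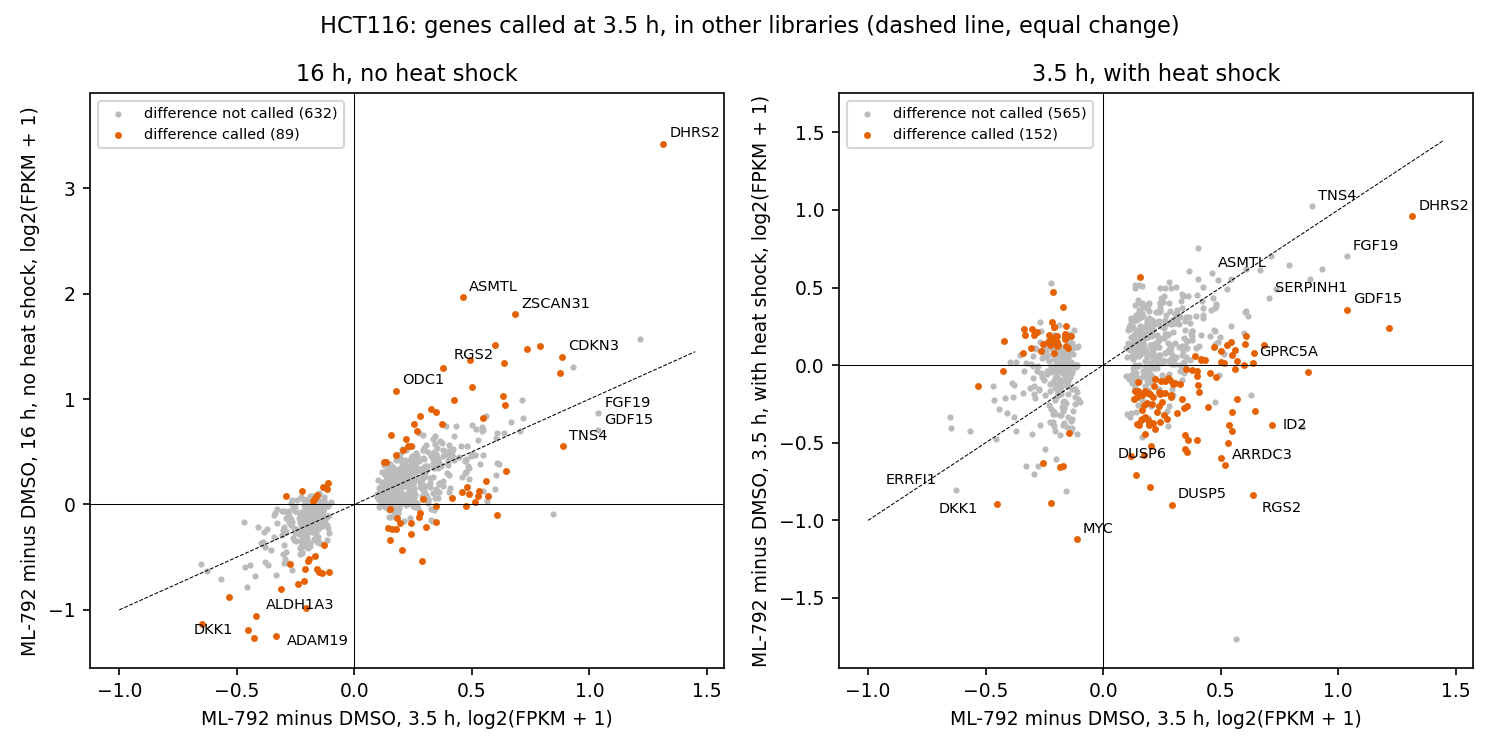
Genes called at 3.5 h, with their change at 3.5 h on the horizontal axis and their change at 16 h (left) or at 3.5 h with heat shock (right) on the vertical axis, all as log2(FPKM + 1). Orange points are genes whose difference between both comparisons was called, 89 on the left and 152 on the right; at 16 h most points keep the sign of 3.5 h, and with heat shock many risen genes lie below 0.

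For the chaperone genes the rise with ML-792 alone was small beside the difference between heat shocked and other libraries. SERPINH1 had a mean of 68.7 ± 0.752 FPKM in DMSO and 112 ± 1.02 FPKM in ML-792, and after heat shock 758 ± 75.4 FPKM in DMSO and 1026 ± 137 FPKM in ML-792. DNAJB1 had 128 ± 5.38, 179.7 ± 6.51, 2700.1 ± 290.4 and 3534 ± 281 FPKM in the same order (means ± SD, n = 3). With heat shock 12 of the 14 risen chaperone genes had a change with ML-792 above 0 and 0 passed the test (0.735% of all genes were called higher there). The interaction was called for 1 of the 14, HSPH1, whose change with heat shock was 0.011 ± 0.12 (difference of -0.50 ± 0.11, adjusted p = 0.0299). The standard error of a change was larger in the heat shocked libraries, with a median of 0.097 over genes against 0.042 without heat shock.

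**Figure D5:**
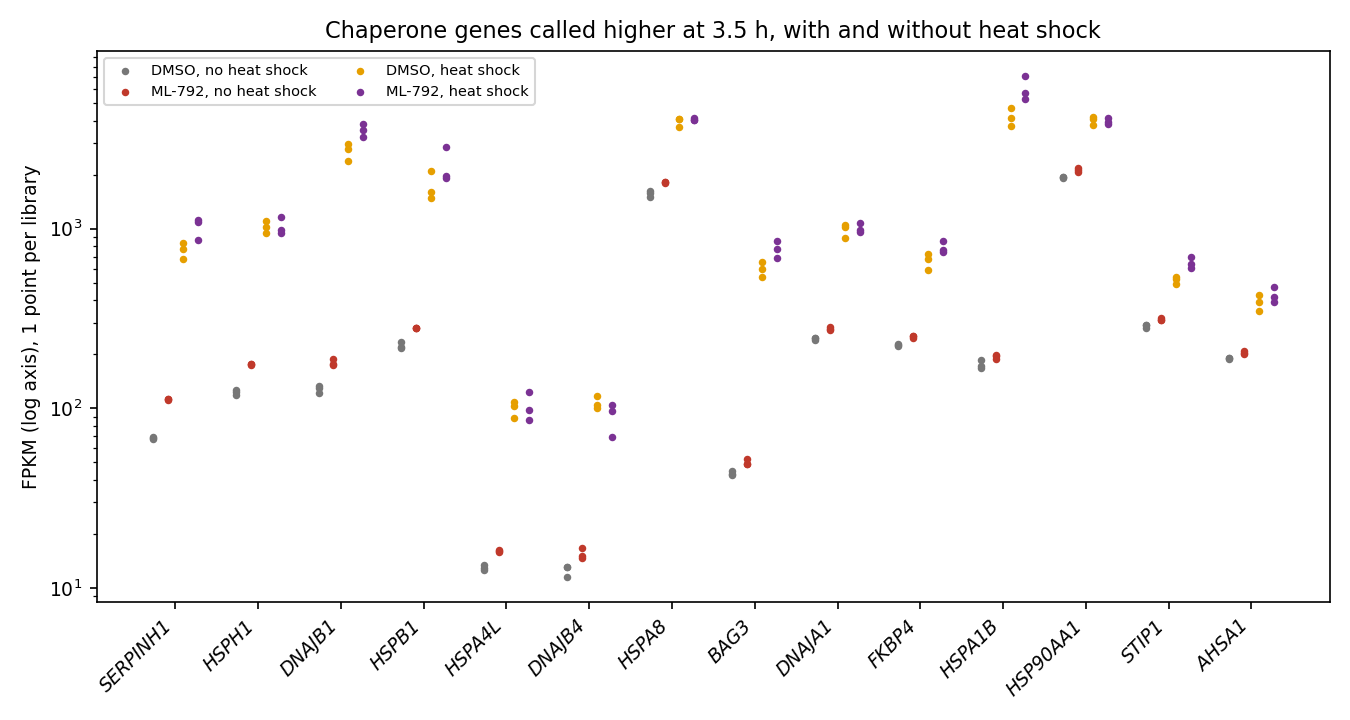
FPKM on a log axis of the 14 chaperone genes called higher at 3.5 h, ordered by that change, with 1 point per library in 4 groups: DMSO and ML-792 without heat shock, DMSO and ML-792 with it. Heat shocked libraries of both groups lie above those without heat shock in all 14 genes, and the gap between ML-792 and DMSO without heat shock is small beside that.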

How the data were processed

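RNA-seq values of 30 libraries were used as deposited, 6 of them for the comparison at 3.5 h and 12 more for the heat shocked and 16 h libraries of HCT116. The values are FPKM per gene symbol, a unit judged from the deposited table itself. Which aligner, quantifier, build and annotation the authors used is not given in the sources used here. DESeq2 1.10.1 appears in the submitters' processing notes, its role unstated. Libraries are numbered in accession order, which pairs none of them. The p-values set a difference between group means against the spread between libraries within groups, which limma moderates across genes.

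Genes that reached 1 FPKM in 3 or more libraries of a fit were tested on log2(FPKM + 1) in limma 3.58.1 (R 4.3.3; lmFit, then eBayes with a mean-variance trend and robust fitting), with Benjamini-Hochberg adjusted p-values over all genes tested and calls under 0.05. All adjusted p-values in the text are of this kind. Each of the 3 drug comparisons used its own 6 libraries, and each difference between comparisons was an interaction over 12. Depth came from how low values compare between libraries, and sets the precision of low genes. Alternatives were pseudocounts of 0.1 and 5, no filter, a filter at 5 FPKM, median-of-ratios scaling, equal totals, each library left out, eBayes without trend, a fit over the 12 libraries of 3.5 h, a threshold of 0.01, and removal of the trend on GC content and length (GENCODE 29 values, for 91.1% of the tested genes). The test was tried on simulated data first.

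The members, the gene lists and the rule for named genes were chosen with earlier results of these data known. The rule named the 12 largest rises and falls among called genes above the median level whose groups did not overlap, the SUMO proteins and their enzymes, of each list up to 4 called members by smallest adjusted p, and 5 genes per difference. Promoter sequences are RefSeq's (GRCh38.p14) and were matched by symbol. Some genes the rule names are not reported here.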

Additional observations from a re-analysis of the deposited data

Results flagged for a closer look

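The interaction test of limma (adjusted p under 0.05, log2(FPKM + 1) scale) was read here for the 12 largest rises and 12 largest falls at 3.5 h above the median level and, for each difference, for the 5 early genes with its smallest adjusted p. It called 28 differences in the effect of ML-792 among these. All of them use the 3.5 h libraries by which the genes were chosen. The 5 genes per difference were picked by the adjusted p of that same test, so their calls follow from the choice.

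Between 16 h and 3.5 h, 14 of these genes differed, including the 5 picked by this test (DHRS2, ASMTL, ODC1, ALDH1A3 and ZSCAN31). The effect was higher at 16 h by 2.11 for DHRS2 (adjusted p = 8.39e-09), 1.504 for ASMTL, 1.124 for ZSCAN31 and 0.91 for ODC1. It was also higher by 0.70 for RGS2, 0.52 for CDKN3 and 0.30 for EHF. It was lower at 16 h, as differences, by -0.92 for ADAM19, -0.74 for DKK1, -0.64 for ALDH1A3 and -0.49 for PLAU, all of which fell at 3.5 h, and by -0.35 for HMOX1. For TNS4 (-0.33) and ELF3 (-0.49), which rose at 3.5 h, the difference was negative too. The adjusted p-values of the other 13 were 6.07e-07 to 0.0359.

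Between libraries with and without heat shock, 14 of these genes differed, including the 5 picked by this test (RGS2, ARRDC3, DUSP6, DUSP5 and PLK2). For genes that rose without heat shock the difference was -1.47 for RGS2 (adjusted p = 2.15e-05), -1.19 for DUSP5, -1.16 for ARRDC3, -1.11 for ID2, -0.89 for DUSP6 and -0.85 for PLK2. It was -0.79 for ELF3, -0.68 for GDF15, -0.62 for GPRC5A, -0.56 for EHF and -0.47 for LRIF1. For genes that fell it was 0.52 for ADAM19, whose change with heat shock was 0.19 and did not pass the test, 0.40 for HMOX1, a change nearer 0, and -0.45 for DKK1, a deeper fall. The adjusted p-values of the other 13 were 2.15e-05 to 0.0412.

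Other genes named in the text differed too and are not in these counts. Between times these include ATF7IP, SUMO3, KLF5, CCNE1 and CCNE2, whose values stand above, and KLF11 (difference of 0.74, adjusted p = 6.63e-05 by limma). With heat shock they include HSPH1, whose values also stand above, H19 (-0.97, adjusted p = 0.000238), ZSCAN31 (-0.55, adjusted p = 0.00911) and DHRS2 (-0.35, adjusted p = 0.0459).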

How the results depend on the processing

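At 3.5 h 728 genes were called. The count was 397 with no filter, 147 in the fit over the 12 libraries of 3.5 h and 288 at an adjusted p under 0.01, and 408 to 543 without any 1 library; with the pseudocounts, the filter at 5 FPKM, both rescalings, eBayes without trend and the GC trend removed it was 618 to 804. With heat shock the 255 calls became 12 with no filter, 85 with equal totals and 414 under median-of-ratios scaling, and 9 to 1167 without any 1 library. At 16 h the 1316 calls became 758 with no filter and 489 to 2062 without any 1 library. The 299 differences between times became 156 to 808 without any 1 library, and the 781 differences with heat shock became 211 with no filter, 247 with equal totals and 77 to 2520 without any 1 library. Removal of the trend on GC content and length, chosen for these 4 comparisons after seeing the data, gave 291, 2437, 773 and 274 calls for heat shock, 16 h and both differences in that order. The causes of these shifts were not tested. No paired analysis was possible because no replicate number is shared between groups in the labels. Of 97 named genes none changed direction under any setting tried; of the 94 called, 50 kept the call under all settings and 75 without any 1 library, and 43 of 97 lost or lacked it in the fit over 12 libraries. Depth limits the genes of low level, where the filter decides which are tested.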

Other observations

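Of 6171 genes at a mean of 10 FPKM or more at 3.5 h, 20 differed at least 2-fold between libraries of the same group, and 0 of these were called by limma. Such a spread within a group raises the standard error, so the lack of calls follows largely from the choice. TXNDC17 had 128.6 FPKM in DMSO library 1 and 33.4 to 36.3 FPKM in the other 5 libraries. RBBP4, a histone-binding subunit of several chromatin complexes, had 118, 122 and 119.6 FPKM in DMSO libraries 1 and 2 and ML-792 library 3, and 35.7 to 42.9 FPKM in the other 3. MRPS14, a protein of the mitochondrial ribosome, had 31.4 and 31.0 FPKM in DMSO libraries 1 and 2 and 10.9 to 12.2 FPKM in the other 4. MAGOHB, a component of the exon junction complex, had 17.7 and 15.2 FPKM in ML-792 libraries 1 and 3 and 40.4 to 48.6 FPKM in the other 4. These 4 genes were chosen after their values were seen.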
